A study of Homo sapiens with 2 samples.

Results

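Many stretches of the genome are copied into RNA from both DNA strands. The RNA read from the strand opposite a gene is called a natural antisense transcript, and many long non-coding RNAs (lncRNAs) are of this kind. Such transcripts may overlap the gene's own RNA tail to tail, head to head or within it. Some are known to act on their partner, through its chromatin, its splicing or its stability, while others appear with it without a known role. A microarray can read both RNAs apart only where it carries a probe for each strand.

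The array examined here does so at a small part of its targets. Among 77162 non-control probes of 60 bases each, 348 pairs were found in which a probe shared at least 30 bases with the reverse complement of another. They involved 589 probes. The rule used sequence alone and no signal. The shared stretch ran from 30 to 60 bases with a median of 43, and 12 pairs shared all 60. The probes matched over the whole stretch in which they overlapped in 262 pairs. In the other 86 the unbroken match was shorter than the overlap, for which a single mismatched base is enough. These probes may belong to related copies and not to one locus. A shared stretch does not by itself place both probes at one locus, since repeats and gene families also give it. At the edge of the rule, 13 pairs shared 30 bases and 16 shared 29, and both probes were detected at 2 h in 3 and in 6 of them. No probe shared 30 bases with its own reverse complement. Pairs also share probes: 513 probes had 1 partner, 76 had several and 1 had 8. The 348 pairs therefore fell into 249 groups of linked probes, and they are not independent of each other. Only opposite-strand matches link these groups, so groups whose probes overlap on the same strand still count apart.

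RNA came from LNCaP, an established line of human prostate cancer cells that carry an androgen receptor and respond to androgen. Cells were starved of steroid hormones in charcoal-stripped serum, whose percentage the sample labels and the methods state differently, and were taken before (0 h) or 2 h after dihydrotestosterone (DHT) at 10 nM, a dose that the labels give for both samples. There was 1 array per condition and 2 arrays in all, on the same slide, so no difference between the times had a replicate check, nothing was tested, and precision is limited by this small number of arrays. Total RNA was copied into double-stranded cDNA and then into Cy3-labelled cRNA, and each probe carries the sequence of the RNA strand that it is meant to read. Signals are given as log2 of the background-corrected intensity after quantile normalization between the arrays, averaged over the spots of a probe, and SDs are over those spots only. A probe counted as detected if the share of its spots that were positive, significant and well above background reached 0.5. On such an array probes differ in how strongly they bind, so that a ratio between 2 probes is a ratio of signals and not of RNA amounts, and fewer RNA copies per cell cannot be told apart from fewer cells that express them. The deposited files carry no gene names for the probes, and only 1 of 22 cell type markers could be tied to a probe by the routes given next, so the labelled cell line was not checked against its markers.

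An identity could be given to at least 1 probe of 17 pairs in 10 groups, through the probe names of the study's own tables, a same-strand overlap of at least 30 bases with a probe named there, or a match of at least 30 bases to one of 35116 RefSeq promoter sequences (GRCh38.p14, from 250 bases before to 50 bases after a gene's start). No pair could be placed at any of 26 androgen-responsive genes or of 41 loci known for antisense transcripts by these routes, and no probe matched any of 1562 miRNA hairpins. Most pairs had no identity, and a promoter match covers only the start of a gene. Pairs at such loci may therefore have gone unseen. The probes of 4 such pairs are printed because they show the range that was seen. They include both strands strongly higher at 2 h (LOC100507645) and both strands near background (TAF1A). In the pairs of RP1-148H17.1 and RP5-857K21.3, 1 probe was detected and the other not. At RP5-857K21.3 a further probe of the opposite strand was detected on both arrays, as described below. Each printed probe is written 5′ to 3′ as it is on the array, with the stretch that is the reverse complement of its partner in capitals.
oebiotech_24628 (LOC100507645, chromosome 11): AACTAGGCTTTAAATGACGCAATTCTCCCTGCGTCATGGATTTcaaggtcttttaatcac
oebiotech_25862 (its opposite strand): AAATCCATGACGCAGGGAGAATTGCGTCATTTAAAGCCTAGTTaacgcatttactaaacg
A_21_P0012143 (RP1-148H17.1, chromosome 20): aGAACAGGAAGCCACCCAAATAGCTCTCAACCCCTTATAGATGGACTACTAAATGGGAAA
oebiotech_09309 (its opposite strand): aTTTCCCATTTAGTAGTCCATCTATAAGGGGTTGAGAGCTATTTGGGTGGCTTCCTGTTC
A_21_P0000940 (RP5-857K21.3, chromosome 1): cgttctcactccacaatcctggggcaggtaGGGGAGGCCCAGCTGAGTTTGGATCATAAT
oebiotech_08100 (its opposite strand): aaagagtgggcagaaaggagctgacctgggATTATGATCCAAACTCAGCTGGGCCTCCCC
A_21_P0001628 (TAF1A, chromosome 1): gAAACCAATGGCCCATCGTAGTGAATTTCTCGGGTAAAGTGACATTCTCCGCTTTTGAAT
oebiotech_23075 (its opposite strand): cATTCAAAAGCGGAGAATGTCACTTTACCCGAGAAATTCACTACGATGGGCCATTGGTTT
In these pairs 43, 59, 30 and 59 bases were shared. The LOC100507645 and RP5-857K21.3 probes are named through a same-strand overlap of 34 and 58 bases with a probe of the study's tables, and the files give no coordinates for them. The TAF1A pair lay before the start of TAF1A, the gene of a subunit of the RNA polymerase I selectivity factor, at chr1:222590087-222590146 for the TAF1A strand and chr1:222590086-222590145 for the other, where RefSeq annotates the lncRNA TAF1A-AS1.

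The first question was whether both strands gave a signal. Probes of the pairs were detected more often than the array as a whole, 241 of 589 (40.9%) at 0 h and 344 (58.4%) at 2 h, against 25.2% and 41.9% of all probes. All 241 members detected at 0 h were also detected at 2 h, and 103 were detected at 2 h only (17.5% of members, against 16.8% of all probes). Of all probes, 0.175% were detected at 0 h only. Both strands were detected in 90 pairs at 0 h (25.9%) and in 159 at 2 h (45.7%). A single strand was detected in 113 pairs at 0 h (32.5%) and in 101 at 2 h (29.0%), and neither strand in 145 and 88. Counting only pairs with any signal, both strands were detected in 44.3% at 0 h and 61.2% at 2 h. Of the 8022 probe pairs that share at least 30 bases on the same strand, both were detected in 69.6% and 80.7% of those with any signal. The same-strand pairs shared more bases (median 50), and the difference between the kinds of pairs was not tested. With 1 pair per group of linked probes, the shares were 40.9% and 58.7%. With a signal that only had to be positive and significant, both strands were counted in 173 pairs at 0 h and in 247 at 2 h.

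The pairs moved in 1 direction between the arrays, from fewer to more detected strands. All 90 pairs with both strands at 0 h had both at 2 h. Of the 113 pairs with 1 strand at 0 h, 57 gained the second strand and 56 kept 1, which was the same strand in all 56. Of the 145 pairs with neither, 88 stayed so, 45 gained 1 strand and 12 gained both. On the 2 h array 37.4% of the spots were well above background, against 21.9% at 0 h, although the 5 spike-in probes used were dimmer there before normalization (median log2 difference -0.41). The part of this difference in the gained strands was not tested.

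Detection of a strand can also be read against the level of its partner. Here every pair entered both ways, so that the level of one strand sets no limit on the signal of the other. At 0 h the partner was detected for 25.9% of 367 strands with a log2 signal below 6, for 50% of 108 from 6 to 8, for 58.3% of 127 from 8 to 10, for 72.2% of 54 from 10 to 12, for 71.4% of 21 from 12 to 14 and for 84.2% of 19 above 14. At 2 h it was detected for 42.7% of 365 strands below 6, for 70.1% of 117 from 6 to 8, for 80.7% of 119 from 8 to 10, for 90.4% of 52 from 10 to 12, for 80.8% of 26 from 12 to 14 and for all 17 above 14. One probe, oebiotech_11355, was the partner of 7 of the strands above 14 on each array, and without its pairs the partner was detected for 9 of 12 at 0 h and for 10 of 10 at 2 h. These shares are descriptions, since pairs share probes, and no cause of them was tested.

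In 56 pairs 1 strand was detected on both arrays and its partner on neither. The ratio between the strands is then a lower bound, taken against the partner's own signal or the lowest log2 signal that any detected probe reached on the array (5.65 at 0 h and 4.64 at 2 h), whichever was higher. The median bound was 2.72 at 0 h and 3.44 at 2 h on the log2 scale, and the detected strand was at least 2-fold brighter on both arrays in 52 pairs and at least 16-fold in 15. The undetected partner was still positive and significant in 20 pairs at 0 h and 38 at 2 h, so the lower threshold separates these pairs less sharply. The detected strand was at least 2-fold lower at 2 h in 16 of the 56 pairs and at least 2-fold higher in 1. One probe, oebiotech_10868, was the detected strand of 4 pairs, and over the 50 distinct probes 13 were lower (26%) and 1 higher (2%). Among all probes detected on both arrays, 19.2% were at least 2-fold lower and 12% higher. The direction and the counts depend on the scaling. When the 75th percentile over all spots was matched, 27 of the 50 were lower (54%, against 38.8% of all probes). There 1 was higher (2%, against 6.39%). With the arrays scaled to the spike-in probes 0 of the 50 were lower and 25 higher (50%, against 63.5% of all probes), and after the normexp background correction, which models the background of each array, 4 were lower (8%, against 7.84% of all probes) and 1 higher (2%, against 8.68%).

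The lncRNA RP1-148H17.1 on chromosome 20 was such a 1-strand case. Its probe A_21_P0012143 gave log2 signals of 6.84 ± 0.20 before and 5.44 ± 0.19 after DHT (SD, 3 spots each). The opposite strand, which shared all but 1 base of the probe, had 3.40 ± 0.17 and 3.29 ± 0.02 and was not detected. The detected strand was at least 2.27-fold brighter at 0 h and at least 1.74-fold at 2 h, bounds that are small because the probe itself was close to the detection limit. It was lower at 2 h by 1.40 on the log2 scale, a direction that turned to 0.60 higher when the arrays were scaled to the spike-in probes.

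At ZFHX3, the gene of a zinc finger homeobox transcription factor with a known role in prostate cancer as a tumour suppressor, a pair lay before the start site that the promoter table lists on chromosome 16, within the span that RefSeq annotates for the gene. Probe oebiotech_06211 reads the gene's strand at chr16:73059117-73059176 and had 7.40 ± 0.11 at 0 h over 2 spots and 5.59 ± 0.16 at 2 h over 3 spots. The other strand, read by oebiotech_28353 at chr16:73059137-73059196, had 6.25 ± 0.24 and 4.74 ± 0.30 and was called undetected on both arrays. A further probe, A_21_P0009057, overlapped the first on the same strand and had 9.01 ± 0.09 and 8.14 ± 0.35. The detected probes oebiotech_06211 and A_21_P0009057 were lower at 2 h, by 1.81 and 0.87. Scaled to the spike-in probes, oebiotech_06211 was instead higher by 0.14. The detected strand of the pair was at least 2.22-fold brighter at 0 h and at least 1.81-fold at 2 h.

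At RP5-857K21.3, a lncRNA on chromosome 1, probe A_21_P0000940 had 6.63 ± 0.41 at 0 h and 5.22 ± 0.15 at 2 h over 2 spots each. One opposite-strand probe, oebiotech_08100, had 6.33 ± 0.33 and 4.77 ± 0.01 and was not detected, which puts the detected strand only at least 1.23-fold and 1.37-fold brighter. Another, oebiotech_10721, had 12.03 ± 0.04 and 10.96 ± 0.02 and was detected on both arrays. Of the other probes on the strand of A_21_P0000940, oebiotech_01774, which the study's tables name, had 6.48 ± 0.07 and oebiotech_23025 had 6.66 ± 0.13 at 0 h, and neither was detected there, so that the 1-strand call at 0 h rests on 1 of 3 probes. At 2 h both were detected, with 5.42 each. The paired opposite-strand probes share 30 and 31 bases with A_21_P0000940, yet only the latter was bright. In the overlap oebiotech_10721 has a mismatch at the base next to its shared stretch, after which the bases match again. Whether its ratio of 42.1-fold at 0 h is a ratio at one locus was not tested.

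The widest 1-strand pairs carried no identity, and their probes are named here after their values were seen. Probe oebiotech_07092 had 14.26 ± 0.15 at 0 h and 13.95 ± 0.07 at 2 h over 3 spots. Its partner oebiotech_06564 had 3.69 ± 0.61 and 3.29 ± 0.03, which puts the bright strand at least 389-fold and at least 634-fold higher. These probes share 32 bases and did not match over the whole overlap. Linked to oebiotech_07092 on its own strand, oebiotech_07390 and oebiotech_07921 had 13.70 ± 0.03 and 13.65 ± 0.01 at 0 h, but A_23_P44112 had 5.64 and was not detected there. At 2 h A_23_P44112 had 6.08 and was detected. Probe oebiotech_04938 had 13.91 ± 0.02 and 13.43 ± 0.06, against 3.33 and 4.61 on the single spot of A_23_P202905. A pair sharing all 60 bases, A_33_P3360867 and A_21_P0013330, had 10.95 against 3.98 at 0 h and 10.82 against 4.05 at 2 h, at least 39.3-fold and 72.6-fold.

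The 90 pairs with both strands detected on both arrays, 142 probes in 56 groups, allow the strands' signals to be set side by side. The median absolute log2 ratio was 1.68 at 0 h and 1.86 at 2 h, against 0.26 and 0.27 in the 1772 same-strand pairs measured the same way. Whether the ratio widened or narrowed at 2 h depends on the scaling, since under every shift of whole arrays and without scaling it was 1.88 at 0 h and 1.75 at 2 h. The median spot SD of such a ratio was 0.22 at 0 h and 0.13 at 2 h in the 33 pairs with several spots for both probes. The largest ratio was 10.28 at 0 h and 10.58 at 2 h. One strand was at least 4-fold brighter on both arrays in 35 pairs and at least 16-fold in 17, while the strands were within 2-fold on both arrays in 14. Of the 17 pairs, 8 were those of a single probe, oebiotech_11355. With 1 pair per group the counts were 20 and 8 of 56. The brighter strand was the same on both arrays in 83 of 90 pairs. Across these 90 pairs, the level of a strand said little about that of its partner, with a Pearson r of 0.05 at 0 h and 0.12 at 2 h over 90 pairs entered both ways, against 0.91 and 0.91 in same-strand pairs. Over 1 pair per group r was 0.11 at 0 h and 0.21 at 2 h. These correlations are descriptions, since the points share arrays and probes.

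The largest ratio belonged to oebiotech_05650, with 17.43 ± 0.03 and 16.88 ± 0.04, against 7.15 ± 0.23 over 2 spots and 6.30 ± 0.20 over 3 spots on oebiotech_05897, which shares 59 bases with it. In the group with the most partners, oebiotech_11355 had 9.27 ± 0.29 and 8.82 ± 0.08. Its 8 opposite-strand partners lay between 13.90 and 15.85 at 0 h and between 13.49 and 15.70 at 2 h, so that none came near it. Of these 8 pairs 2 match over the whole overlap. All 9 probes of this group were lower at 2 h, by 0.15 to 0.56, but with the spike-in scaling oebiotech_11355 was higher by 1.15 and its partner A_23_P106708 by 0.27. Among pairs with an identity and both strands detected on both arrays, A_33_P3346327 had the largest ratio at 0 h. It matched over 41 bases the strand opposite FAM88F at chr9:62532515-62532555 and had 15.37 ± 0.01 and 14.63 ± 0.01, while its partner A_33_P3351197 had 9.06 ± 0.22 and 8.90 ± 0.18, a ratio of 79.3-fold at 0 h and 52.8-fold at 2 h. On the log2 scale the change of A_33_P3346327 minus that of its partner was -0.59 here, but -1.77 under any shift and without scaling. At 2 h the pair of A_21_P0000940 and oebiotech_10721, described above, had 53.4-fold.

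At the start of the lncRNA STPG3-AS1 on chromosome 9, the strand opposite the lncRNA was the bright one. Probe A_33_P3359223 matched that strand at chr9:137253448-137253482 and had 13.39 and 12.77 on its single spot. A same-strand neighbour, A_33_P3282614, had 11.76 and 11.10. The probe on the lncRNA's own strand, A_33_P3409575 at chr9:137253448-137253503, had 3.42 at 0 h, where it was not detected, and 5.72 at 2 h, where it was. RefSeq places the protein-coding genes CIMIP2A and STPG3 over the same bases. The bright strand was at least 214-fold higher than the lncRNA strand at 0 h and 133-fold higher at 2 h. The gain of the lncRNA strand amounts to no more than a bound of 1.04-fold, because the lowest signal detected at 0 h was nearly as high as its signal at 2 h.

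In pairs of a catalogue probe (the standard gene probes of this maker) with a probe of the lncRNA classes, 135 in all, the catalogue strand was more often the detected one. It alone was detected in 35 pairs at 0 h and 28 at 2 h, the lncRNA strand alone in 16 and 13, both in 37 and 67, and neither in 47 and 27. Where both strands were detected on both arrays, the catalogue strand was the brighter in 29 of 37 pairs at 0 h and in 24 at 2 h, with a median log2 ratio of 1.07 and 1.18. These 37 pairs come from 30 groups of linked probes. Over the whole array, too, catalogue probes were detected more often, 35% at 0 h and 55.5% at 2 h, against 18.2% and 32.1% of lncRNA-class probes. A further 176 pairs joined lncRNA-class probes on both strands and 37 joined catalogue probes on both. In these, both strands were detected at 2 h in 70 and in 22. In the 90 pairs the shared stretch of the brighter strand held more G than C in 41 and more C than G in 41 at 0 h, and in 40 and 42 at 2 h. It held more A than T in 44 and more T than A in 43 at 0 h, and in 49 and 38 at 2 h. In the 56 pairs with a single detected strand, that strand came from 50 distinct probes. Over their whole length 34 of these (68%) held more C than G and 30 (60%) more T than A, against 58.9% and 50% of all probes detected on both arrays, which is given as a description only.

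The second question was whether both strands changed together after DHT. Of the 241 members detected on both arrays, 20 were at least 2-fold higher at 2 h (8.30%, against 12% of all probes) and 33 at least 2-fold lower (13.7%, against 19.2%), and their median log2 change was -0.28, against -0.29 for all probes. Among the 90 pairs, both strands passed 2-fold in the same direction in 7, of which 3 were higher and 4 lower. With the spike-in scaling 43 pairs were higher and 0 lower, without scaling 34 and 0, and when the 75th percentile over all spots was matched 2 and 15. No pair passed 2-fold in opposite directions. A single strand passed 2-fold in 17 pairs and neither in 66. This count too moved with the processing, to 34 with the spike-in scaling, 29 with the shift to the median, and 10 both without scaling and after normexp. Same-strand pairs passed 2-fold together in 28% of 1772 and on a single probe in 11.4%. The sign of the change was shared in 73 of the 90 pairs, 23 higher and 50 lower, and differed in 17, while 38.7% of all probes were higher at all. In same-strand pairs it was shared in 92.6%, with 49.2% higher and 43.5% lower on both probes. This split depends on the scaling, since with the arrays scaled to the spike-in probes 81 pairs were higher on both strands and 0 lower, and the median change of all probes moved from -0.29 to 1.34.

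The difference between the strands' changes is not affected by a shift of a whole array. Its median was 0.39 on the log2 scale, against 0.13 in same-strand pairs, and it reached 2-fold in 9 of the 90 pairs, in 6 of 56 with 1 pair per group, and in 2.14% of same-strand pairs. Under any shift it reached 2-fold in 17 pairs, which held 3 of the 9, and in 2.54% of same-strand pairs. After normexp it did so in 5 pairs and in 1.69% of same-strand pairs. The spot error of such a difference had a median of 0.15, and 22 of the 33 pairs with several spots exceeded 2 such errors, which covers spot noise and not the cultures or the labelling. Across the 90 pairs the strands' changes had a Pearson r of 0.79 and a Spearman rho of 0.75. In same-strand pairs r was 0.94. Without the 3 pairs that were at least 2-fold higher on both strands, r was 0.62 over 87 pairs. The same removal left an r of 0.88 over 1446 same-strand pairs. These points too share arrays, probes and normalization.

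The largest joint rise was at LOC100507645 on chromosome 11. Probe oebiotech_24628 had 7.29 ± 0.14 at 0 h and 12.30 ± 0.05 at 2 h (SD, 3 spots), 32.3-fold higher. Its opposite-strand partner oebiotech_25862 had 8.54 ± 0.10 and 13.56 ± 0.03, 32.6-fold higher. After quantile normalization the strand ratio was -1.25 at 0 h and -1.26 at 2 h on the log2 scale. The difference between the strands' changes was -0.01 there, but 0.28 under any shift of whole arrays and -0.44 after the normexp background correction. The table-named probe A_19_P00319476, on the strand of oebiotech_24628, had 8.33 ± 0.12 and 13.43 ± 0.11. Under 7 ways of scaling the arrays the changes ran from 4.38 to 6.60 for oebiotech_24628 and from 4.27 to 6.32 for oebiotech_25862, all higher at 2 h. Among its largest rises the paper also lists MALAT1, 1 of the 41 loci known for antisense transcripts, on chromosome 11. Without coordinates for these probes, whether the pair lies at MALAT1 was not tested.

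The other joint rises formed 1 set of 4 catalogue probes, each with 1 spot, linked by overlaps on both strands and without an identity. The pair of A_23_P156809 and A_33_P3809606 does not match over its whole overlap. They are named after their values were seen, as are the pairs without an identity described hereafter. On one strand A_23_P156807 had 9.87 and 12.83 and A_23_P156809 had 9.04 and 11.73. On the other A_23_P252642 had 11.24 and 13.35 and A_33_P3809606 had 9.99 and 11.70. The first strand was higher by 2.96 and 2.69, and the second by 2.11 and 1.71, so that the ratio between the strands narrowed. All 4 probes were higher under each of the 7 scalings, although A_33_P3809606 did not reach 2-fold when the 75th percentile over all spots was used.

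The joint falls were smaller and less firm, and among pairs that match over the whole overlap there was only 1, that of A_33_P3219303 and oebiotech_00876. In the others the probes need not be at one locus. At A_33_P3291891 and oebiotech_17677 the strands had 9.25 and 8.60 ± 0.25 at 0 h and 7.17 and 7.25 ± 0.25 at 2 h. Their nearest probes on the strand of oebiotech_17677 were also lower, A_21_P0007499 by 1.64 and oebiotech_03468 by 0.41. At A_33_P3219303 and oebiotech_00876, which share 58 bases, the strands had 12.44 and 9.18 ± 0.01 at 0 h and 11.42 and 7.66 ± 0.10 at 2 h. The other 2 were the RP5-857K21.3 pair with oebiotech_10721, described above, and A_23_P51646 with A_33_P3404779, which went from 10.89 to 9.13 and from 8.79 to 7.78. Scaled to the spike-in probes, at least 1 strand of each of these 4 pairs was higher at 2 h.

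In 7 of the 9 pairs whose changes differed by at least 2-fold after quantile normalization, 1 strand changed by over 2-fold and the other by less. Of these, 3 are pairs of A_21_P0007508, described after the other 4. Probe A_33_P3378284 went from 16.70 to 18.12, while its partner A_33_P3210288 had 14.88 and 14.82, a difference between the changes of 1.48 on single spots. These 2 probes share 30 bases and do not match over the whole overlap, so they need not be at one locus. Probe oebiotech_16519 went from 8.79 ± 0.03 to 10.04 ± 0.10 and oebiotech_26218, on the same strand, from 9.53 ± 0.09 to 10.33 ± 0.07, while A_33_P3369667 on the other strand had 9.60 and 9.51. In this pair the brighter strand at 0 h was the dimmer at 2 h. Probe oebiotech_00475 went from 7.28 ± 0.06 to 5.78 ± 0.20, while A_21_P0014435 had 7.88 ± 0.29 and 7.64 ± 0.19. At oebiotech_01691 the signal went from 9.52 ± 0.20 to 10.55 ± 0.12, while A_33_P3308115 had 8.95 at both times. Which strand changed depends on the scaling. With the shift to the 75th percentile of spots above background on both arrays, A_33_P3378284 was higher by 0.38 and A_33_P3210288 lower by 1.06. With the spike-in scaling A_33_P3369667, A_21_P0014435 and A_33_P3308115 were higher by 1.46, 1.60 and 1.63, and oebiotech_00475 was higher by 0.47. The difference between the strands takes the same value under every shift. For the pair of A_33_P3378284 it was 1.44 under a shift and 1.49 after normexp, and for the pair of oebiotech_16519 it was 1.39 and 1.06. For the pair of oebiotech_00475 it was 1.27 after quantile normalization and 1.13 under a shift, but 0.66 after normexp, below 2-fold. At oebiotech_01691 the absolute difference was 1.03 and, after normexp, 1.02, but 0.88 under a shift, again below 2-fold.

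The largest difference did not keep its size. Probe A_21_P0007508 had 7.21 ± 0.05 over 2 spots and 5.05 ± 0.11 over 3 spots, a change of -2.17. Its 3 opposite-strand partners, oebiotech_24675, oebiotech_02971 and A_21_P0007502, had 13.89 ± 0.11, 13.77 ± 0.10 and 13.67 ± 0.07 at 0 h and changed by -0.59, -0.63 and -0.66. After quantile normalization the difference from oebiotech_24675 was 1.57, but it was 0.29 with any shift of whole arrays and 0.49 after the normexp background correction. The cause of this was not tested. In the remaining 2 of the 9 pairs neither strand reached 2-fold. Probe oebiotech_02736 changed by -0.44 and oebiotech_19189 by 0.64, and A_23_P107412 changed by 0.98 and oebiotech_08300 by -0.04. Neither difference reached 2-fold under a shift of whole arrays or after normexp. For the first pair its size was 0.26 under any shift. Probe oebiotech_19189 was lower by 0.41 with the shift to the 75th percentile of spots above background on both arrays. It was higher by 1.09 with the spike-in scaling.

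Strands detected at 2 h only were read against their partners as well. For 57 strand-partner combinations the partner was detected on both arrays, and the gained strand was at least 2-fold higher as a bound in 14 of them. The partner was itself at least 2-fold higher in 8 of these 14 and at least 2-fold lower in 0. Over all 57 combinations, whatever the gained strand did, the partner was higher in 11 and lower in 4, while 12% of all probes detected on both arrays were higher and 19.2% lower. These counts moved with the processing. With the spike-in scaling the partner was higher in 44 of the 54 combinations with a gain of at least 2-fold (63.5% of all probes were then higher), when the 75th percentile over all spots was matched in 7 of 11 (6.39% of all probes), and after normexp in 0 of 4 (8.68%). After quantile normalization the 14 came from 6 groups of probes, linked here by matches on either strand, and the 8 from 3, with 6 of the 8 in 1 group. Of the 103 members gained at 2 h, 18 had a bound of at least 2-fold (17.5%, against 19.5% of all probes gained).

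At A_21_P0010651 a strand was gained beside partners that stayed within 2-fold after quantile normalization. It had 4.77 ± 0.97 at 0 h, undetected, and 8.15 ± 0.19 at 2 h, at least 5.64-fold higher. Its 3 opposite-strand partners were detected on both arrays: oebiotech_17043 had 6.89 ± 0.10 and 7.55 ± 0.21, oebiotech_17097 had 8.67 ± 0.09 and 8.75 ± 0.07, and oebiotech_25582 had 8.72 ± 0.21 and 8.69 ± 0.07. On the same strand as these, oebiotech_02501 had 8.85 ± 0.19 and 7.96 ± 0.18. Likewise oebiotech_26195 went from 5.90 ± 0.10 to 8.16 ± 0.05, at least 4.78-fold, while A_33_P3210760 had 8.38 and 8.04. This pair shares 50 bases but does not match over the whole overlap. With the spike-in scaling oebiotech_17043 was higher by 2.63 and A_33_P3210760 by 1.40. After normexp the gained strands rose less, A_21_P0010651 by 1.66 and oebiotech_26195 by 1.31 on the log2 scale.

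At oebiotech_24090 the strands moved in different directions after quantile normalization. It had 8.02 ± 0.25 and 7.25 ± 0.08, and its same-strand neighbour oebiotech_24021 had 7.40 ± 0.07 and 6.28 ± 0.05. On the other strand oebiotech_26594 went from 5.17 ± 0.06 to 6.73 ± 0.03 and oebiotech_26599 from 5.35 ± 0.83 to 6.84 ± 0.15, neither detected at 0 h. The bound for oebiotech_26599 was 2.27-fold, and oebiotech_24090 was 1.71-fold lower. After normexp the change of oebiotech_26599 was 0.52 on the log2 scale, below 2-fold. The fall of oebiotech_24090 turned to a rise of 1.06 with the spike-in scaling.

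A gain beside a partner that was higher too was seen in a group of 5 probes, none of whose pairs matches over the whole overlap. On one strand A_32_P57728, oebiotech_19812 and oebiotech_20885 had 8.20 ± 0.08, 8.51 ± 0.14 and 8.17 ± 0.19 at 0 h and 10.68 ± 0.08, 10.72 ± 0.05 and 10.75 ± 0.01 at 2 h. On the other strand A_32_P216734 went from 5.40 to 7.57, at least 3.77-fold, and oebiotech_27544 from 5.81 ± 0.45 to 7.15 ± 0.15. In this group all 5 probes were higher. At 0 h, where A_32_P216734 was undetected, oebiotech_19812 was at least 7.25-fold brighter than it. At 2 h oebiotech_19812 was 8.91-fold brighter. After normexp the change of A_32_P216734 was 0.93 on the log2 scale, below 2-fold.

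Both strands were gained in 12 pairs. In the pair oebiotech_17785 and oebiotech_19637, which share all 60 bases, the signals went from 6.47 ± 0.16 to 10.65 ± 0.07 and from 5.97 ± 0.29 to 8.07 ± 0.14, at least 18.1-fold and 4.30-fold higher. At A_21_P0003091 the signal went from 3.47 ± 0.13 over 2 spots to 9.40 ± 0.06 over 3 spots, at least 13.4-fold, while its partner oebiotech_20528 had 6.18 ± 0.76 and 6.67 ± 0.06. The TAF1A pair was also of this kind, but at the limit: the TAF1A strand had 5.07 ± 0.59 and 5.57 ± 0.21 and the opposite strand 5.50 ± 0.61 and 5.75 ± 0.30, and the bounds of the changes were -0.08 and 0.10 on the log2 scale. After normexp the change was 3.42 for oebiotech_17785, 1.18 for oebiotech_19637 and 2.92 for A_21_P0003091 on the log2 scale.

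At the promoter of LOC102724977 on chromosome 14, which RefSeq places over the immunoglobulin heavy chain variable segment IGHV3-64, 1 probe on the gene's strand faced a family of overlapping probes on the other. Probe oebiotech_11845, at chr14:106657770-106657819, had 3.79 ± 0.61 at 0 h, undetected, and 5.86 ± 0.10 at 2 h, a gain whose bound is only 1.15-fold. Of its opposite-strand partners, oebiotech_11384 had 7.34 ± 0.68 and 6.37 ± 0.08 and was detected, while A_33_P3235876, A_33_P3301075, oebiotech_12112 and oebiotech_12167 lay between 3.25 and 3.76 at 0 h and were not. Linked to these on their strand, oebiotech_12119 was the brightest of the group, with 10.66 ± 0.13 and 9.92 ± 0.04, and was detected on both arrays. Since the variable segments resemble each other, which segment any of these probes reads is uncertain. At 2 further loci no probe of either strand was detected. At LINC02345 on chromosome 15 the 3 probes lay between 3.43 and 4.12, and at LOC102724193 on chromosome 9 the 3 probes lay between 3.26 and 3.35, on either array.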

How the data were processed

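For each of 2 arrays the authors deposited Feature Extraction (version 10.7.1.1) output, in which a spot's value is an intensity after background correction, with no normalization between arrays. They also deposited log2 values per probe, quantile normalized with GeneSpring, and each value column belongs to 1 of the 2 samples. Intensities of 175556 non-control spots were quantile normalized here and put on the log2 scale. After removal of outlier-flagged spots (2628 at 0 h, 2528 at 2 h), the spots of each probe were averaged. No spot was saturated. At 0 h 21.9% and at 2 h 37.4% of spots were well above background. The threshold for counting a change was 2-fold, as in the study's methods, and smaller changes are given with their size.

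The members and gene lists were chosen with earlier results of these data known. There was 1 array per condition, so nothing was tested. Pairs with an identity were to be named by largest ratio, joint change, difference of changes, 1-strand detection and gain, at most 1 per group and class; of pairs without an identity, those named beyond 2 higher and 2 lower were chosen after their values were seen, as was the use of same-strand overlaps for identity. Matching to proteins and transcripts was not done here. Sequences come from the deposited files, promoters and hairpins from RefSeq (GRCh38.p14). Sequences are printed only where the chromosome is known.

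Python 3.11.15, numpy 2.4.6, pandas 2.3.3 and scipy 1.17.1 were used, and limma 3.58.1 in R 4.3.3 for the normexp correction and to check the quantile step. The pair search was tested on simulated data and recovered 153 of 153 planted pairs among 5500 probes with 0 false ones. Alternatives changed the detection rule, the scaling, the background correction, the values, the overlap, the pairs sharing probes and the threshold.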

Additional observations from a re-analysis of the deposited data

How the results depend on the processing

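No paired analysis was possible because there was 1 array per condition. Of 155 values recomputed under alternatives, 100 stayed within set limits and 55 did not. For counts the limit was 1.5 times. For the median ratio it was the median spot SD of a single pair's ratio, 0.22 at 0 h and 0.13 at 2 h. For the median difference of changes it was the median spot error of a single pair's difference, 0.15. These are spreads of single pairs and not errors of a median. Detection by any spot, kept outlier spots, the authors' processed values and the shift to the 75th percentile of spots above background on both arrays changed none by this measure, although under every shift the median ratio was lower at 2 h (1.75) than at 0 h (1.88) and after quantile normalization higher. Detection by a positive and significant signal alone gave 173 and 247 pairs with both strands (0 h and 2 h). With at least 45 shared bases, both strands were detected in 36 and 68 pairs and 1 strand in 45 and 44, the median absolute ratio was 1.44 and 1.55, the same strand was brighter in 34 of 36, 30 moved the same way, 1 passed 2-fold on both strands and 8 on 1. With all 60 bases, both strands were detected in 2 and 3 pairs and 1 strand in 2 and 3, the median ratio was 2.44 and 2.21, the same strand was brighter in 2, 1 moved the same way, 0 passed 2-fold on both strands and 1 on 1, and the median difference of changes was 0.22. With 1 pair per group, both strands were detected in 56 and 105 pairs, the median ratio at 2 h was 1.70, the same strand was brighter in 51 of 56 and 44 moved the same way. Without probes that have several partners, both strands were detected in 42 and 79 pairs and 1 strand in 66 and 57, the median ratio at 2 h was 1.70, the same strand was brighter in 39 of 42, 33 moved the same way and 11 passed 2-fold on 1 strand. These counts fall because fewer pairs are read. With no detection filter all 348 pairs were read, the median ratio at 2 h was 1.70, the same strand was brighter in 304, 229 moved the same way, 31 passed 2-fold together, 97 on 1 strand and 2 in opposite directions. Pairs past 2-fold on both strands numbered 43 with the spike-in shift, 34 without scaling, 17 when the 75th percentile over all spots was matched, 4 after normexp, 3 at a threshold of 3-fold and 3 among pairs matching over the whole overlap. The 43 and the 34 were all higher, and of the 17, 15 were lower. Pairs past 2-fold on 1 strand numbered 34 with the spike-in shift, 10 without scaling, 29 with the shift to the median, 34 when the 75th percentile over all spots was matched, 10 after normexp and 5 at 3-fold. After normexp the median ratio at 2 h was 1.69. Matching the 75th percentile over all spots and the restriction to pairs matching over the whole overlap were chosen after seeing the data. The cause of these differences was not tested, apart from the number of pairs read.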
